A study of Mus musculus with 8 samples.

Results

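The cytosolic ribosome of the mouse is built from ribosomal RNA and a fixed set of ribosomal proteins, and the genes of these proteins and of their paralogs were taken from the transcriptome of germ cells with and without *Mgat2*. Members were the genes whose symbol is that of a protein of the small (40S) or large (60S) subunit, of the stalk proteins *Rplp0*, *Rplp1* and *Rplp2*, of *Rpsa*, or of a named copy such as *Rpl10l* or *Rps4x*. The deposited tables hold 55357 genes, of which 90 were members. They comprise 77 core genes, 31 of the small and 46 of the large subunit, 10 paralogs and 3 further named copies (*Rpl6l*, *Rpl32l* and *Rps12l1*). The annotation lists these 3 copies and the paralog *Rpl37rt* as processed pseudogenes, those of *Rpl32l* and *Rpl37rt* as transcribed. All members except *Rps12l1*, which had no reads in any library, passed the filter of at least 1 TPM (transcript abundance scaled for length and depth) in at least 1 sample, so that 89 of the 20187 genes tested were members.

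RNA-seq was performed on germ cells of 8 male C57BL/6 mice at 15 days after birth, 1 library per mouse. The 4 control mice were *Mgat2*[F/F], and the 4 conditional knockout (cKO) mice were *Mgat2*[F/F]:*Stra8*-iCre, so both groups carried the floxed alleles and only the cKO group carried the Cre recombinase. The *Stra8*-iCre transgene is expressed in spermatogonia from soon after birth, and *Mgat2* is therefore deleted in germ cells but not in the somatic cells of the testis. Germ cells were released from the tubules by enzymes rather than sorted, and p-values measure the spread between these mice. Values of a genotype are given in the order of replicates 1 to 4.

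Each ribosomal protein of an actively translating cell is normally made in step with the others, and their mRNAs are among the most abundant of any cell. Most core genes lie on autosomes, but a few lie on the X chromosome, which is silenced in male germ cells during the pachytene stage of meiosis. Autosomal copies of X-linked core genes, several of them intronless retrogenes, are known to be expressed in spermatocytes, where *Rpl10l* and *Rpl39l* are the best studied. *Rpl10* encodes a protein that joins the large subunit late in its assembly, *Rpl39* a small protein of the peptide exit tunnel, *Rpl36a* a further protein of the large subunit and *Rps4x* a protein of the small subunit.

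The coding sequences of these copies differ from those of their X-linked partners mainly by scattered single bases. Reads that cover such bases can be assigned to 1 of the 2 genes. Transcribed bases outside the coding sequence, which may also tell the genes apart, were not compared. *Rpl39l* and *Rpl39* are each 153 bases long without the stop codon, and 130 positions are identical (85.0%), with 38 bases as the longest stretch without a difference. They are shown whole, from the GRCm39 genome and the GENCODE annotation, with the 23 differing bases in capitals, of which 16 are at the third position of a codon.
*Rpl39* (chromosome X, reverse strand): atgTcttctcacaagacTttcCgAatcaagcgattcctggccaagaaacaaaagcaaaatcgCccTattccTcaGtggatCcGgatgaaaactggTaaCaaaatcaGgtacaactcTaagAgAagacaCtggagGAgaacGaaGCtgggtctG
*Rpl39l* (chromosome 16, forward strand): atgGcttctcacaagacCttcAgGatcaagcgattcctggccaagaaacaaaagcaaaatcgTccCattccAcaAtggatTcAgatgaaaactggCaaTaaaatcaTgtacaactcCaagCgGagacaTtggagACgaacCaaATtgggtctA

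Over 642 coding bases *Rpl10l* and *Rpl10* were identical at 544 (84.7%), and 89 of the 98 differences were at the third codon position. Their first 150 coding bases are shown in the same way, with 25 differing bases in capitals, because in this pair the mean of the paralog was lower, and that of the core gene higher, in cKO germ cells.
*Rpl10* (chromosome X, forward strand): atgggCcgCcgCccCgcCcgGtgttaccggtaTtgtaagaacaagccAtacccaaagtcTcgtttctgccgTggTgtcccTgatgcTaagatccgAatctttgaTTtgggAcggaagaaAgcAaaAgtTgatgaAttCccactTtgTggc
*Rpl10l* (chromosome 12, reverse strand): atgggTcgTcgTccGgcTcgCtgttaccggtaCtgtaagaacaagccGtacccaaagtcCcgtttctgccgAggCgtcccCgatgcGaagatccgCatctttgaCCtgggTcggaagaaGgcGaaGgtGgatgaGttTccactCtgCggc

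For *Rpl36al* and *Rpl36a*, 279 of 318 coding bases were identical (87.7%), with 35 of the 39 differences at the third codon position. The first 150 bases are shown with 23 differing bases in capitals, since *Rpl36al* had the largest genotype difference of all members and its reads had to be told from those of its partner.
*Rpl36a* (chromosome X, forward strand): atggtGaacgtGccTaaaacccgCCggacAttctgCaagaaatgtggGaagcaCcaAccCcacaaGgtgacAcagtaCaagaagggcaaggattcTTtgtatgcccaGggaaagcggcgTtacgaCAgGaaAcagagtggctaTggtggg
*Rpl36al* (chromosome 12, reverse strand): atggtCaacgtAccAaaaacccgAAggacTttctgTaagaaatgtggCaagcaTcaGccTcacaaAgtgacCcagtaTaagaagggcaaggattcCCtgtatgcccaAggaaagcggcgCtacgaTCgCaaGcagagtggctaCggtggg
Identity was 79.7% for *Rps4l* with *Rps4x*, 76.2% for *Rps27l* with *Rps27*, 73.0% for *Rpl3l* with *Rpl3*, 65.9% for *Rpl22l1* with *Rpl22* and 50.2% for *Rpl7l1* with *Rpl7*. *Rps27rt* was identical to *Rps27* over all 252 coding bases, so its level depends on how reads were divided between the 2 genes and is uncertain.

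Total expected counts per library were between 12584726 and 15907505, so that 3 counts, the smallest signal considered, corresponded to 0.19 to 0.234 CPM (counts scaled to the library total after TMM normalization), a limit that covers counting error only. *Mgat2*, the targeted gene, was at 69.8, 31.8, 64.3 and 59.8 CPM in controls and at 35.3, 20.1, 37.6 and 16 CPM in cKO mice, with control replicate 2 below 2 of the cKO libraries (log2 fold change -1.05 ± 0.36 SE, adjusted p = 0.47 with edgeR and 0.025 with DESeq2). Both libraries numbered 1 stood apart from the others of their genotype. The summed level of 12 pachytene marker genes was 2591 TPM in control replicate 1 against 731 to 1190 TPM in the other controls, and 903 TPM in cKO replicate 1 against 346 to 408 TPM in the other cKO libraries. The same libraries were lowest of their genotype in the sums of Sertoli (8062 and 8635 TPM), peritubular myoid (380 and 344 TPM), endothelial (4.88 and 4.32 TPM) and early meiotic prophase markers (1683 and 1549 TPM). Germ cell markers (4 genes) summed to 801 to 1035 TPM in controls and 781 to 920 TPM in cKO libraries. Sertoli cell markers (12 genes) summed to 8062 to 10102 TPM in controls and to 8635 to 10253 TPM in cKO libraries, so the RNA also came from somatic cells, in which *Mgat2* is not deleted. Markers of Leydig cells were at 35.9 to 89.7 TPM over both genotypes, those of peritubular myoid cells at 344 to 652 TPM, of macrophages at 12.4 to 26.4 TPM, of endothelial cells at 4.32 to 9.94 TPM and of red blood cells at 58.4 to 201 TPM. In bulk RNA a lower level can mean fewer cells of a type or less RNA per cell, and these cannot be told apart.

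The share held by the ribosomal protein genes was similar in both genotypes. As a share of the TPM of a library the members took 9.45%, 9.13%, 8.53% and 8.71% in controls. In cKO libraries they took 9.67%, 8.97%, 9.38% and 8.61%. The means were 8.96% ± 0.415 (SD, n = 4) and 9.16% ± 0.464 (SD, n = 4), a difference of 0.2 percentage points that is smaller than the spread within either genotype. It was between 0.0295 (without cKO replicate 1) and 0.381 percentage points (without cKO replicate 4) when 1 library was left out. The same members held 2.09% ± 0.0605 of the expected counts in control and 2.18% ± 0.181 in cKO libraries (SD, n = 4 each). The small subunit accounted for 4.06% ± 0.171 in control and 4.18% ± 0.206 in cKO libraries (SD, n = 4 each), and the large subunit for 4.71% ± 0.228 and 4.81% ± 0.252 (SD, n = 4 each). Paralogs held 0.195% ± 0.0227 of control TPM and 0.163% ± 0.0102 of cKO TPM (SD, n = 4 each), and each cKO library, at 0.154% to 0.174%, was below each control library, at 0.181% to 0.229%. Taken singly, 9 of the 10 paralogs overlapped between genotypes in CPM. Only *Rpl36al*, whose values are uncertain because its exons overlap those of *Mgat2*, did not, and the sum was not taken without it. The mean of *Rpl36al* was 381 TPM in control and 157 TPM in cKO libraries, that of *Rpl10l* 219 and 147 TPM, and that of *Rpl39l* 139 and 92.1 TPM.

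Levels per transcript length were compared between genes in TPM, and the most and least abundant genes are named by that unit. The order depends on the transcript length assigned to each gene. By CPM the control mean of *Rps27*, at 182, was below those of *Rplp1* (416) and *Rpl13a* (501). Core genes ranged in control germ cells from 203 to 5656 TPM with a median of 949 TPM, a 27.9-fold range. *Rps27*, a zinc-binding protein of the small subunit, was the most abundant at 5656 ± 457 TPM (SD, n = 4), followed by the acidic stalk protein *Rplp1* at 3368 ± 311 TPM, *Rps14* at 2592 ± 141 TPM, *Rps24* at 2399 ± 143 TPM and *Rpl13a* at 2323 ± 255 TPM (SD, n = 4 each). The means of *Rps24* and *Rpl13a* differed by less than their SD. At the other end were *Rpl37* at 273 ± 22.4 TPM, *Rps4x* at 223 ± 21.3 TPM and *Rpl39* at 203 ± 29 TPM (SD, n = 4 each), and the last 2 differed by less than their SD. All 4 X-linked core genes were in the lower part of the order of 77, with *Rpl10* at rank 63 (594 ± 52.7 TPM), *Rpl36a* at rank 71 (442 ± 70.2 TPM), *Rps4x* at rank 76 and *Rpl39* at rank 77. Paralogs reached from *Rps27l*, at 573 ± 33.1 TPM, and *Rpl36al*, at 381 ± 122 TPM, down to *Rpl3l*, at 2.56 ± 1.55 TPM (SD, n = 4 each), a copy known from striated muscle.

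**Figure D1:**
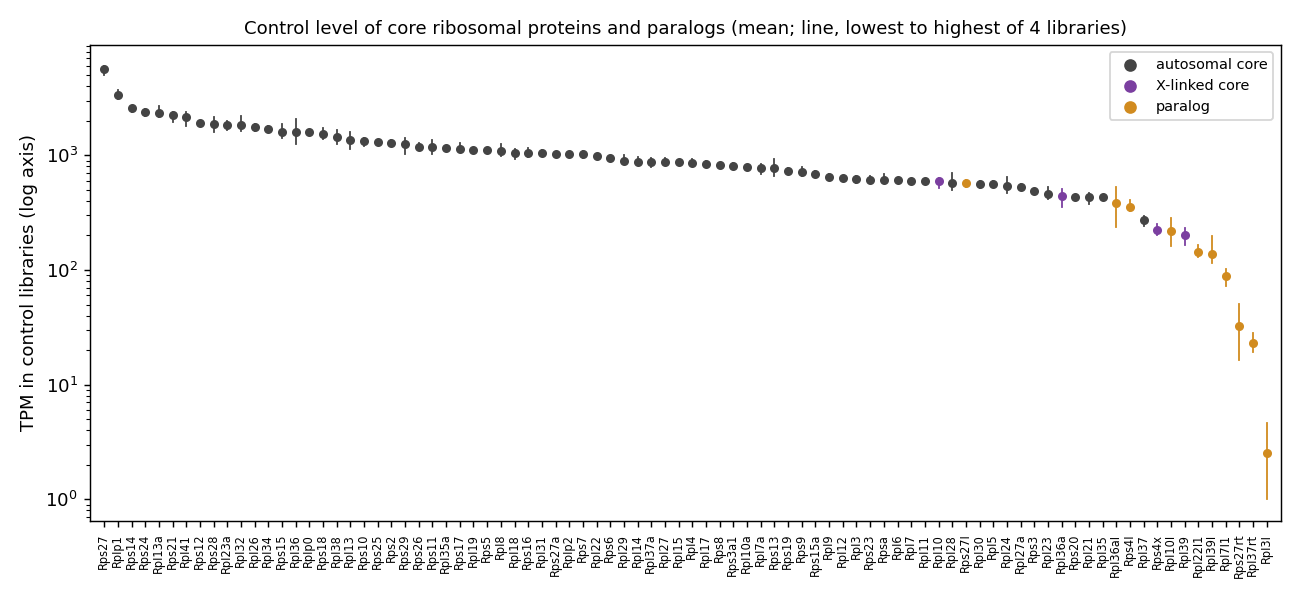
Mean TPM in the 4 control libraries (log axis) of 76 core genes and the 10 paralogs, ordered by level, with a line from the lowest to the highest library. Core genes lie between 203 and 5656 TPM, X-linked core genes are in the lower part of the order, and the paralogs range from 573 TPM (*Rps27l*) to 2.56 TPM (*Rpl3l*).

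No member passed the test between genotypes over all genes. With edgeR's quasi-likelihood test and Benjamini-Hochberg adjustment, 0 of 89 members had an adjusted p under 0.05, where 0.0396% of all genes tested did (8 genes). DESeq2 called 1 member, *Rpl36al*, against 1.86% of the genes to which it gave an adjusted p. Before adjustment, 3 members were lower in cKO germ cells at p under 0.05 in edgeR, against 6.28% of all genes, and 4 were higher, against 2.62% of all genes. The 3 lower members were all paralogs (*Rpl36al*, *Rpl39l* and *Rpl10l*), and the 4 higher ones were all core proteins of the small subunit (*Rps4x*, *Rps19*, *Rps12* and *Rps15a*). Every cKO library was below every control library in 1 member, *Rpl36al* (3.03% of all genes), and above in 4 (2.47% of all genes), among them *Rpl6*, *Rps15a* and *Rps19*.

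Core genes differed little between genotypes. Their log2 fold changes, cKO over control, ran from -0.14 to 0.29 with a median of 0.06, and 56 of 77 were above 0. Over all 20187 genes tested the median was 0.01, and 10364 were above 0. The spread among core genes was narrow, from -0.01 at the 25th percentile to 0.11 at the 75th percentile, against -0.22 and 0.14 over all genes. The standard error of a core gene was between 0.06 and 0.13, with a median of 0.08. The median was 0.06 for the 31 genes of the small subunit and 0.04 for the 46 of the large subunit. Core genes were also steadier than other genes between mice of a genotype, with a median coefficient of variation in CPM of 6.29% in control and 9.13% in cKO libraries, against 18.6% and 17.7% over all genes, which include many at low counts.

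In some libraries most core genes shared a direction. Against each gene's own mean over the 8 libraries, the median core gene was at 0.05, -0.03, -0.08 and -0.05 on the log2 scale in controls and at 0.17, -0.01, 0.04 and -0.09 in cKO libraries. In cKO replicate 1, 65 of the 77 core genes were above their mean, whereas in cKO replicate 4 it was 7. The libraries numbered 2 were more evenly split, with 31 in control and 32 in cKO. Without cKO replicate 1 the median log2 fold change of the 79 members outside the list of 10 paralogs was 0.01 instead of 0.05.

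**Figure D2:**
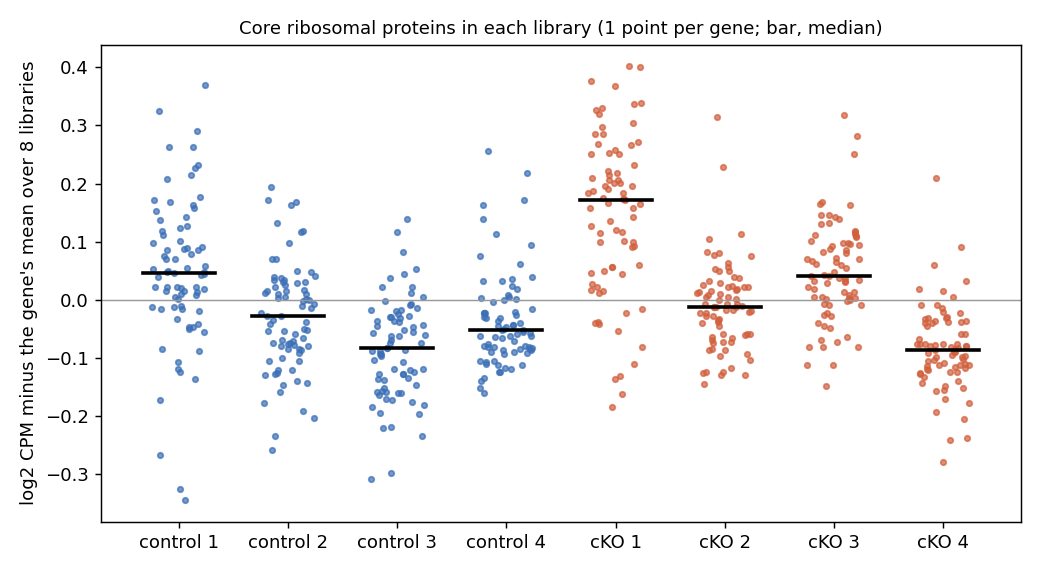
Log2 CPM of each of the 77 core genes minus its mean over the 8 libraries, 1 point per gene, with the median as a bar. The medians lie between -0.09 (cKO replicate 4) and 0.17 (cKO replicate 1), and the libraries of the 2 genotypes overlap.

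In 4 autosomal core genes the genotypes did not overlap, and the differences were small and in part rested on cKO replicate 1. *Rps15a*, a small subunit protein, was at 242, 236, 238 and 249 CPM in controls and at 324, 258, 259 and 255 CPM in cKO mice. Its cKO libraries were thus all above the controls, cKO replicate 1 by far (log2 fold change 0.18 ± 0.08 SE, unadjusted p = 0.047, adjusted p = 0.56 by edgeR), and without that library the log2 fold change was 0.09. *Rps19*, known for its mutation in Diamond-Blackfan anemia, was at 193, 205, 191 and 194 CPM in control and 214, 206, 227 and 214 CPM in cKO libraries, the lowest cKO library just above the highest control (log2 fold change 0.14 ± 0.06 SE, edgeR adjusted p = 0.55). *Rpl6*, of the large subunit, was at 363, 358, 353 and 362 CPM in control and 427, 376, 369 and 368 CPM in cKO libraries, again without overlap and with cKO replicate 1 highest (log2 fold change 0.10 ± 0.07 SE, edgeR adjusted p = 0.68, and 0.05 on the log2 scale without that library). *Rps12* (log2 fold change 0.16, adjusted p = 0.55 from edgeR) and *Rps3a1* (0.19, adjusted p = 0.56 from edgeR) had overlapping genotypes. For the most abundant genes the log2 fold changes were -0.05 in *Rps27*, 0.10 in *Rplp1*, 0.18 in *Rps14*, 0.10 in *Rps24* and 0.13 in *Rpl13a*, each with a standard error between 0.07 and 0.10. Without cKO replicate 1 the value was 0.08 in *Rps14*, 0.04 in *Rpl13a* and 0.06 in *Rps24*, without cKO replicate 3 it was 0.06 in *Rplp1*, and without cKO replicate 4 that of *Rps27* was 0.02.

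**Figure D3:**
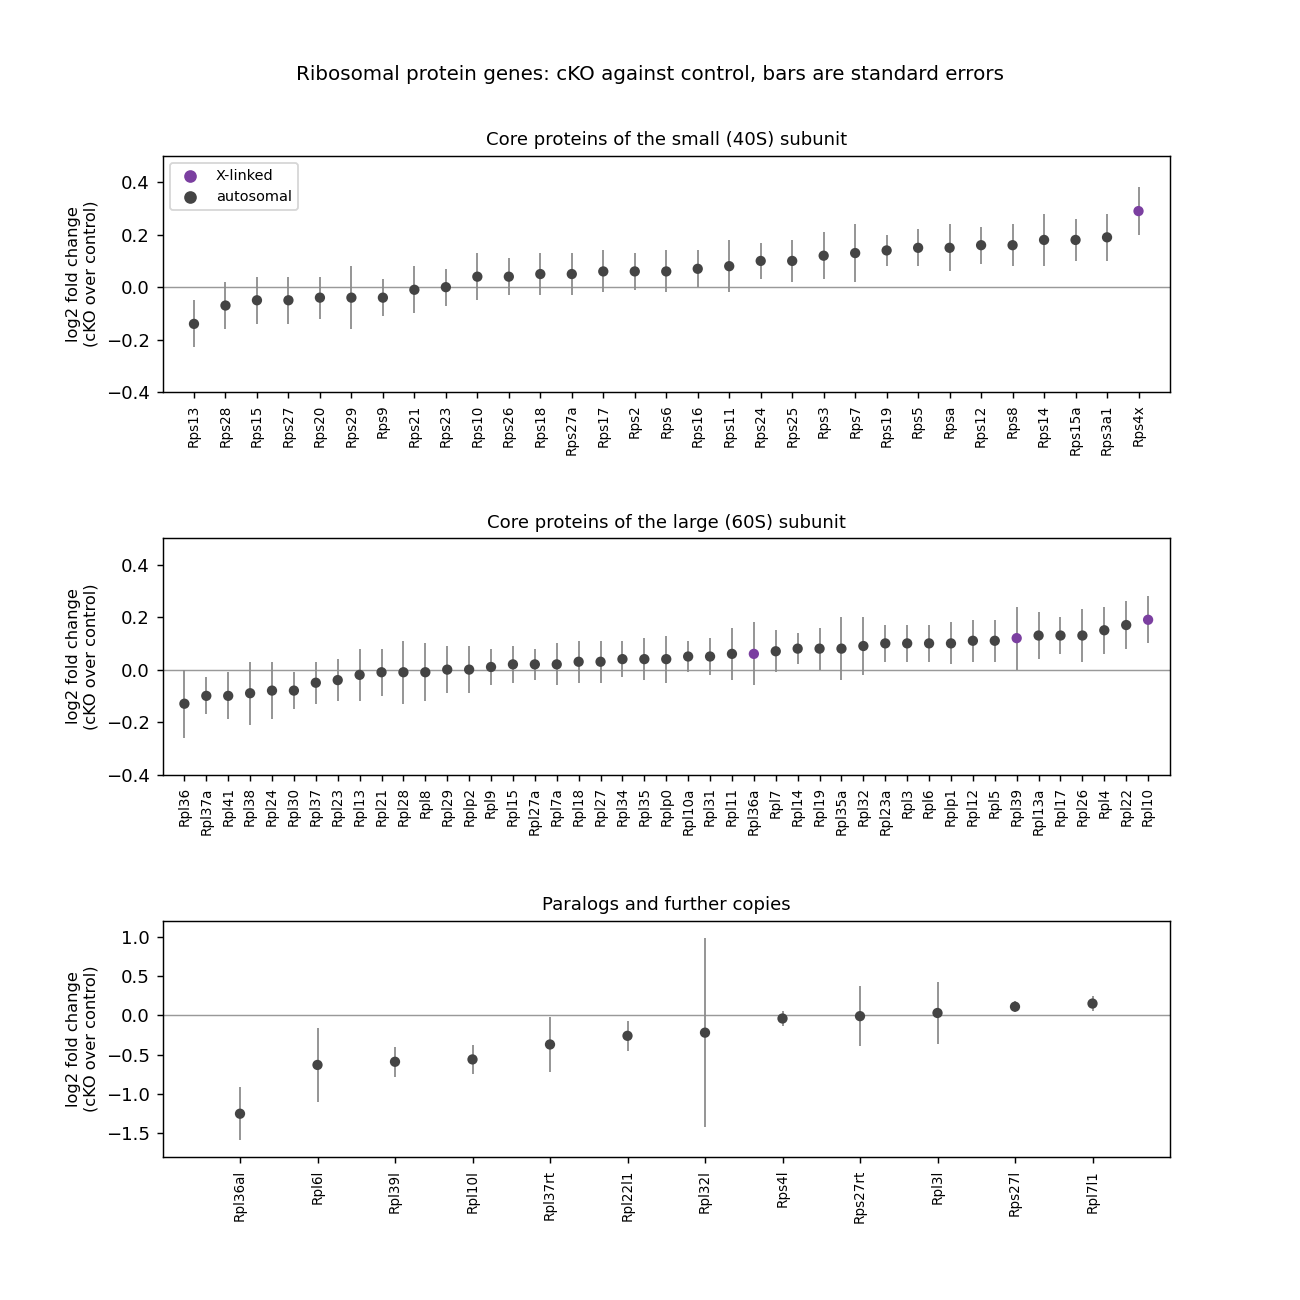
Log2 fold change (cKO over control, edgeR) with its standard error for 76 core genes by subunit and for the 10 paralogs with *Rpl6l* and *Rpl32l*; the axis of the lowest panel is wider. Core genes lie between -0.14 and 0.29, and *Rpl36al* (-1.25), *Rpl39l* (-0.59) and *Rpl10l* (-0.56) are the paralogs with an unadjusted p under 0.05.

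The means of the X-linked core genes were each slightly higher in cKO germ cells, with log2 fold changes of 0.29 in *Rps4x*, 0.19 in *Rpl10*, 0.12 in *Rpl39* and 0.06 in *Rpl36a* (median 0.15), of which the last changed sign without control replicate 3 and among replicates 2 to 4 alone. *Rps4x* had 87, 91.6, 95.2 and 105 CPM in controls and 103, 130, 111 and 121 CPM in cKO mice. Only control replicate 4 reached above a cKO library, cKO replicate 1 (standard error 0.09, unadjusted p = 0.0064, adjusted p = 0.39 from edgeR). *Rpl10* was at 150, 186, 182 and 189 CPM in control and at 174, 220, 211 and 200 CPM in cKO libraries, where cKO replicate 1 lay within the controls (standard error 0.09, adjusted p = 0.59 from edgeR). The genotypes overlapped in *Rpl39*, at 32.5 to 46.2 CPM in control and 40.6 to 49.1 CPM in cKO libraries, and in *Rpl36a*, at 43.5 to 62.6 and 49.6 to 61.7 CPM. Higher values in cKO libraries were common to the X chromosome. The median over 618 X-linked protein-coding genes tested was 0.14, with 513 of them above 0 and 13.4% higher at an unadjusted p under 0.05, against a median of 0.02 and 2.82% for 14195 autosomal protein-coding genes.

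*Rpl10l* (chromosome 12, 66329273 to 66331181) was lower in cKO germ cells, the opposite direction to its X-linked partner. It was at 135, 90.4, 105 and 74.1 CPM in controls and at 84.9, 61.5, 64.8 and 62.9 CPM in cKO mice. In each genotype replicate 1 was highest, and cKO replicate 1 exceeded control replicate 4. The means were 101 ± 25.7 and 68.5 ± 11 CPM (SD, n = 4 each), 1.48-fold lower in cKO (log2 fold change -0.56 ± 0.18 SE, unadjusted p = 0.013, adjusted p = 0.44 by edgeR). The log2 fold change was -0.39 without control replicate 1, with an adjusted p of 0.63 from edgeR.

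*Rpl39l* (chromosome 16, 9949671 to 9992780) was also lower and likewise highest in replicate 1 of each genotype. It was at 60.8, 37.4, 37.7 and 35.4 CPM in controls, while cKO mice had 35.6, 24.8, 28.1 and 25.2 CPM. Control replicate 1 was far above the other controls, and cKO replicate 1 just above control replicate 4. The difference was 1.51-fold (log2 fold change -0.59 ± 0.19 SE, unadjusted p = 0.0093, adjusted p = 0.42 by edgeR). Without control replicate 1 the log2 fold change was -0.37, with an adjusted p of 0.58 from edgeR.

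With both libraries numbered 1 left out, which were known to stand apart and to make the genotypes overlap in *Rpl10l*, *Rpl39l* and *Rps4x*, edgeR called 3 members, and they were these 3. They are 3.37% of the members, fewer than the 4.24% called of all genes, and these calls are no independent support. *Rpl36al* was not called there (log2 fold change -1.22, adjusted p = 0.30 from edgeR). Their log2 fold changes were -0.52 in *Rpl10l*, -0.50 in *Rpl39l* and 0.31 in *Rps4x*, with adjusted p-values of 0.0049, 0.0013 and 0.0044 from edgeR. DESeq2, on all 8 libraries, gave these genes adjusted p-values of 0.079, 0.099 and 0.14.

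**Figure D4:**
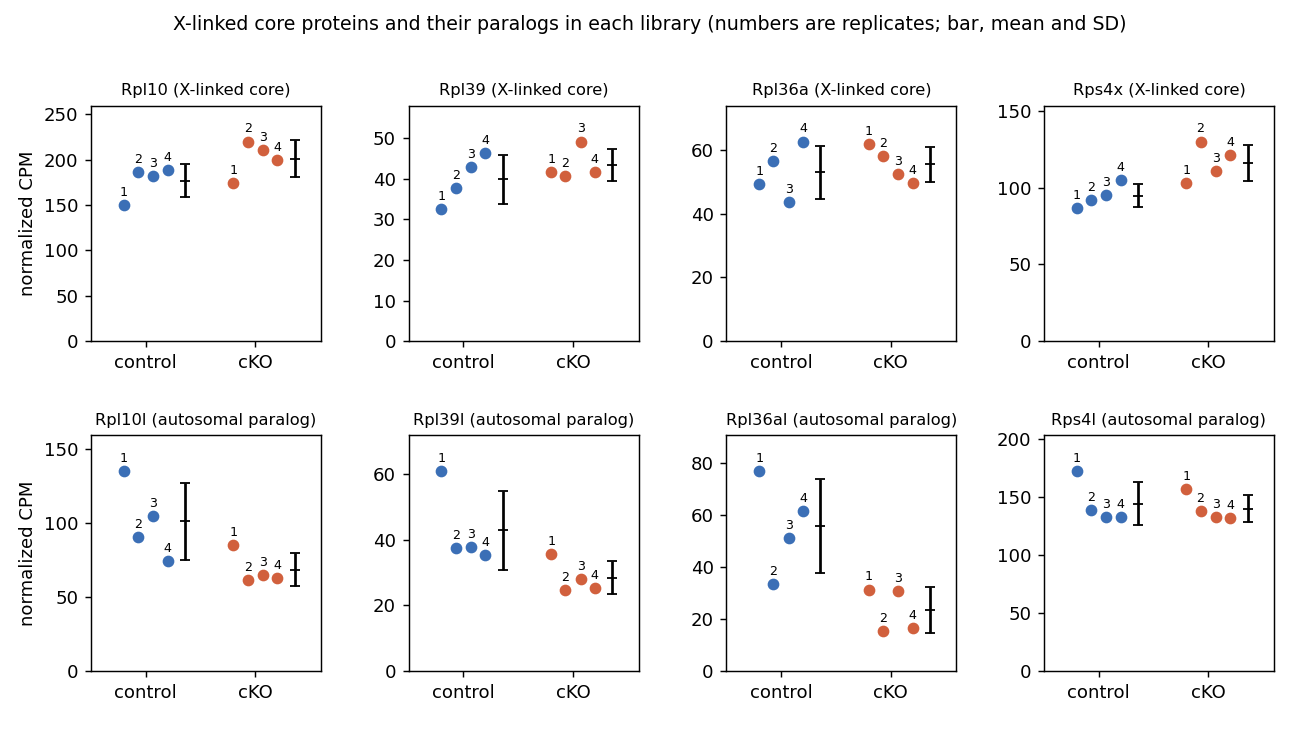
Normalized CPM of the 4 X-linked core genes (top) and their autosomal paralogs (bottom) in each library, with replicate numbers and the mean ± SD of each genotype; axes start at 0. *Rpl10l* and *Rpl39l* are highest in replicate 1 of each genotype, and *Rpl36al* is the gene in which every cKO library lies below every control library.

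Markers of pachytene spermatocytes had lower values in cKO libraries too, beside *Rpl10l* and *Rpl39l*. Of the 12 markers 11 had log2 fold changes below 0 (median -1.27), 3 of them at an unadjusted p under 0.05 in edgeR and 0 after adjustment, while DESeq2 called 1, *Piwil1*. Their summed level was 731 to 2591 TPM in control and 346 to 903 TPM in cKO libraries, and 731 to 1190 against 346 to 408 TPM without the libraries numbered 1. None of the 12 was at 0 in any library, with *Ccna1* and *Pgk2* lowest at 0.14 and 0.142 CPM in a cKO library. These values were below the limit of 3 counts, so the fold changes of both genes are uncertain. Markers of earlier meiotic prophase (10 genes) had a median log2 fold change of -0.08 and those of spermatogonia (10 genes) of 0.20. Their part in the levels of *Rpl10l* and *Rpl39l* was not tested. Spermatid markers were low, with 5 of 9 tested, *Acrv1*, *Prm1*, *Prm2* and *Tnp2* below the filter, and a summed level of 33.6 to 80.7 TPM in control and 18.7 to 34.3 TPM in cKO libraries.

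Other autosomal retrogenes of X-linked genes, one of which (*Pgk2*) is also a pachytene marker, had a median log2 fold change of -0.66, with 5 of 6 below 0. *Pdha2*, of the pyruvate dehydrogenase complex, was at 106, 49.1, 58.6 and 38.3 CPM in control and 43.9, 28.3, 27.4 and 24.8 CPM in cKO libraries (log2 fold change -1.02, unadjusted p = 0.022, adjusted p = 0.48 from edgeR and 0.029 from DESeq2). Its range overlapped between genotypes only through cKO replicate 1. *Cstf2t* (-0.19) and *Rbmxl2* (-0.29) differed less. Of their X-linked parents 6 of 6 were above 0 with a median of 0.18, among them *Pdha1* (0.26), *Cstf2* (0.19) and *Pgk1* (0.16). Most X-linked protein-coding genes tested were above 0 too, 513 of 618 with a median of 0.14. EdgeR called 0 of the 12 retrogenes and parents, with 1 lower and 2 higher at an unadjusted p under 0.05. Of the 618 X-linked genes 13.4% were higher at that threshold.

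*Rpl36al* had the largest difference of all members. It lies on chromosome 12 from 69228230 to 69231234 on the reverse strand, and 304 bases at its 5′ end, from 69230931 to 69231234, overlap the 5′ end of *Mgat2* on the forward strand. In the GENCODE transcript used here this is 13.9% of the 2188 exon bases of *Rpl36al*, and it holds no coding bases of either gene. The authors counted reads with a different annotation, from Ensembl, and the overlap's part of the bases counted there was not determined. Control means were 55.8 CPM and 381 TPM for *Rpl36al* but 101 CPM and 219 TPM for *Rpl10l*, so the length counted for *Rpl36al* was the shorter. The libraries were not stranded, so reads within the overlap could belong to *Rpl36al* or to *Mgat2*, which makes both values uncertain. *Rpl36al* was at 76.9, 33.7, 51.3 and 61.5 CPM in controls and 31.4, 15.3, 30.7 and 16.7 CPM in cKO mice. Every cKO library was below every control library, if narrowly for control replicate 2 (2.37-fold lower, log2 fold change -1.25 ± 0.34 SE, unadjusted p = 0.0071, adjusted p = 0.40 with edgeR and 0.0025 with DESeq2). Replicate 2 was the lowest control for both *Rpl36al* and *Mgat2*, and cKO replicates 2 and 4 were the lowest 2 cKO libraries for both. The part of the *Mgat2* deletion itself in the level of *Rpl36al* was not tested.

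*Rps4l* (chromosome 6, 148256098 to 148257431) differed by less than its spread. Controls had 172, 139, 133 and 133 CPM and cKO mice 157, 138, 133 and 132 CPM, so that replicate 1 was again the highest of each genotype (log2 fold change -0.04 ± 0.09 SE, edgeR adjusted p = 0.93). Per length *Rps4l* was above its X-linked partner, with 353 ± 40.1 against 223 ± 21.3 TPM in control and 343 ± 30.6 against 270 ± 30.9 TPM in cKO libraries (SD, n = 4 each).

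The remaining paralogs, whose partners are autosomal, were not called and gave overlapping genotypes. *Rps27l*, a p53 target, was at 68.4 to 74.6 CPM in control and 73.0 to 80.7 CPM in cKO libraries (log2 fold change 0.11, standard error 0.07), and *Rpl7l1*, a protein of large subunit assembly, at 82.5 to 104 and 94.8 to 115 CPM (0.15, standard error 0.09). *Rpl22l1* was at 24.6 to 29.2 CPM in control, at 25 to 26.7 CPM in 3 cKO libraries and at 13.5 CPM in cKO replicate 1 (log2 fold change -0.26 ± 0.19 SE, edgeR adjusted p = 0.70), while its partner *Rpl22* was at 135 to 148 CPM in control and 140 to 186 CPM in cKO libraries. *Rpl37rt*, *Rpl3l* and *Rps27rt* had means between 1 and 1.5 CPM in both genotypes and standard errors of 0.35 to 0.40. Differences of that size could not be told from 0 at this depth. For *Rpl37rt* the direction depended on the unit, with a log2 fold change of -0.37 in counts and a mean of 23.0 TPM in control against 35.2 TPM in cKO libraries. Of the further copies *Rpl6l* had a log2 fold change of -0.63 (standard error 0.47) and *Rpl32l* of -0.22 (standard error 1.2), with *Rpl32l* at no more than 0.253 CPM in any library.

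The balance within each pair was expressed as the share of the paralog in the TPM of paralog and partner. *Rpl10l* made up 35.5%, 24.3%, 27.6% and 20.3% of its pair in controls and 23.6%, 15.6%, 16.5% and 16.9% in cKO mice. *Rpl39l* made up 54.6%, 38.3%, 35.6% and 33.3% in control and 35.6%, 28.2%, 26.9% and 27.6% in cKO libraries. In both pairs only cKO replicate 1 lay within the range of the controls.

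*Rpl36al* held 55.9%, 33%, 49.5% and 44.4% of its pair in control and 29.3%, 17.5%, 32.5% and 21.1% in cKO libraries, without overlap. *Rps4l* held 56.6% to 67.3% in control and 52.6% to 62.3% in cKO libraries. The log2 ratio of paralog to partner differed between cKO and control by -0.73 for *Rpl10l*, -0.69 for *Rpl39l*, -1.36 for *Rpl36al* and -0.31 for *Rps4l*, compared with standard deviations of 0.26 to 0.58 within a genotype. Without control replicate 1 it was -0.41 for *Rpl39l* and -0.19 for *Rps4l*.

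Summed over both genes, the pair of *Rpl10* was at 812 ± 9.4 TPM in control and 817 ± 43.9 TPM in cKO libraries, and that of *Rps4x* at 576 ± 27.1 and 613 ± 26.7 TPM (SD, n = 4 each). The pair of *Rpl39* was at 342 ± 17.6 and 311 ± 22.8 TPM and that of *Rpl36a* at 822 ± 130 and 613 ± 70.6 TPM (SD, n = 4 each). For the other 6 pairs the change in log2 ratio was between -0.47 (*Rpl22l1*) and 0.63 (*Rpl37rt*), and genotypes overlapped in each. Both ends rested on 1 library, with -0.17 for *Rpl22l1* without cKO replicate 1 and 0.35 for *Rpl37rt* without cKO replicate 3. For *Rpl3l* the change was -0.37, with -0.73 without control replicate 3 and -0.06 without control replicate 4.

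**Figure D5:**
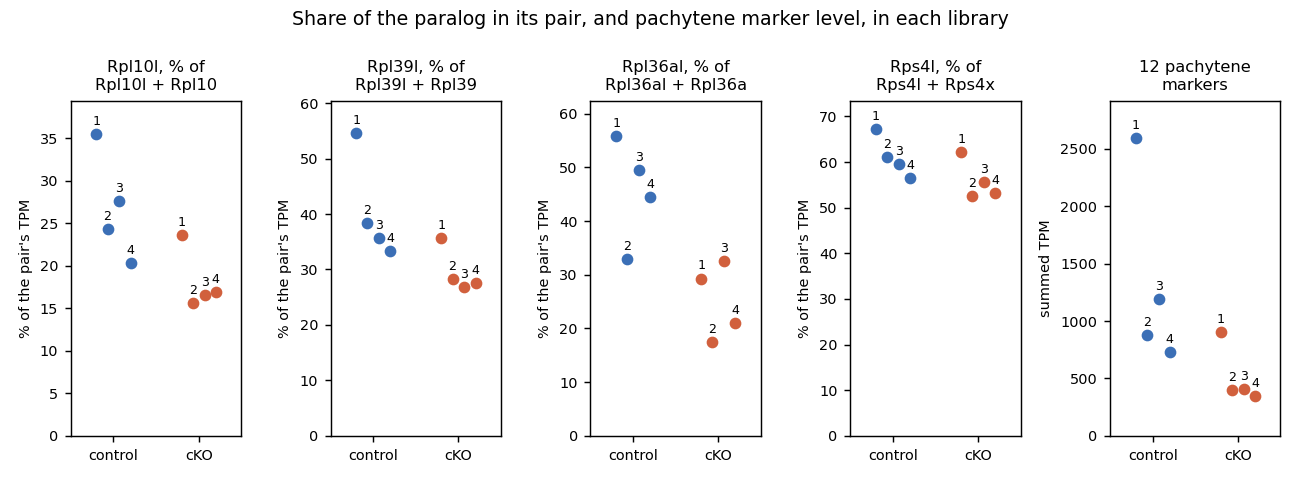
Share of the paralog in the TPM of paralog and X-linked partner (4 left panels, %) and summed TPM of 12 pachytene markers (right panel) in each library, with replicate numbers; axes start at 0. Replicate 1 of each genotype has the highest pachytene marker level and the highest *Rpl10l*, *Rpl39l* and *Rps4l* shares, and the *Rpl36al* share is the one without overlap between genotypes.

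Genes that work with the ribosome stayed close to the core proteins. *Fau*, in which a ribosomal protein is fused to a ubiquitin-like protein, and the ribosome-bound scaffold *Rack1* had log2 fold changes of 0.06 (below 0 without cKO replicate 1) and 0.07, with adjusted p-values of 0.87 and 0.77 from edgeR. Of 16 translation factors and related genes whose mRNAs, like those of ribosomal proteins, begin with a run of pyrimidines, 12 were above 0 (median 0.05), and 0 were called by edgeR or DESeq2 or had an unadjusted p under 0.05 in edgeR. The exception in size was *Pabpc1*, the poly(A)-binding protein, at 1774, 1067, 1273 and 1000 CPM in control and 1182, 912, 819 and 845 CPM in cKO libraries (log2 fold change -0.44 ± 0.20 SE, edgeR adjusted p = 0.57), highest in replicate 1 of each genotype. Among the others with the smallest p were *Tpt1* (0.15) and *Eif4b* (0.09).

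Of 50 genes of ribosome assembly, including RNA polymerase I and nucleolar factors, 34 were above 0 with a median of 0.05. Of all 20187 genes tested 10364 were above 0. EdgeR and DESeq2 called 0 of the 50. At an unadjusted p under 0.05 edgeR had 1 lower (2%, against 6.28% of all genes) and 3 higher (6%, against 2.62%). Every cKO library was above every control library in 6 (12%, against 2.47% of all genes) and below in 0. *Ncl* (nucleolin), an abundant protein of the nucleolus, was at 545, 577, 536 and 532 CPM in control and 687, 634, 637 and 604 CPM in cKO libraries. All cKO libraries were above the controls (log2 fold change 0.23 ± 0.07 SE, unadjusted p = 0.0049, adjusted p = 0.35 with edgeR and 0.056 with DESeq2). *Nop58*, of box C/D ribonucleoproteins, had a log2 fold change of 0.19 and *Rrp1* of -0.26, with adjusted p-values of 0.55 and 0.53 from edgeR.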

How the data were processed

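RNA from germ cells of 4 control and 4 cKO mice was sequenced from non-stranded poly(A) libraries. The authors aligned reads to mm39 with STAR 2.7.9a and quantified genes with RSEM 1.3.3, and they deposited RSEM expected counts, which are not normalized between samples, and TPM, scaled within each library for length and depth. RSEM divides reads that match several genes, and 36.2% of the members' expected counts were not whole (tolerance 1e-06), against 15.2% of all values above 0. All columns could be mapped to the 8 samples (0 others). Samples were grouped by their titles.

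Expected counts were rounded, and genes with at least 1 TPM in at least 1 sample were tested for genotype by the robust quasi-likelihood F-test of edgeR 4.0.16 after TMM scaling, with Benjamini-Hochberg adjustment over all 20187 genes, with 0.05 as threshold. CPM use the TMM factors. DESeq2 1.42.0 and limma 3.58.1 served for alternatives, in R 4.3.3. The edgeR test was checked on simulated counts, drawn without structure shared between libraries. Positions and coding sequences came from GENCODE release M39 on GRCm39, taking transcripts with a CCDS entry, and all 90 members were found in it. Log2 ratios of a paralog to its partner used TPM with a pseudocount of 0.1. Shares, ratios and list medians were not tested.

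The members, gene lists and alternatives were chosen with earlier results of these data known. Genes named are *Mgat2*, paralogs and their partners, X-linked core genes, the 5 most and 3 least abundant core genes, the 5 largest differences each way among members with genotypes apart, members called by edgeR, DESeq2 or with the replicate number as a block, *Fau*, *Rack1*, and up to 3 genes with the smallest p from the lists of translation factors, ribosome assembly, other retrogenes, their parents and mitochondrial ribosomal proteins. *Rps12*, *Piwil1*, *Ccna1* and *Pgk2* were named after their values were seen. For marker lists summed levels are given in place of single genes. Some genes are not reported here by name.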

Additional observations from a re-analysis of the deposited data

Results flagged for a closer look

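Each genotype's 4 libraries were searched for a library whose gap to the nearest other exceeded Dixon's 95% critical value relative to the group's range, in 70 groups of values over the members and related measures. This marked 11 groups, and chance marks about 1 in 20. The groups share libraries and in part genes, so they are not independent, and the count was not tested against that rate. In 7 of the 11 the library was cKO replicate 1. It was high in *Rpl10l* (84.9 CPM, nearest other 64.8), *Rps15a* (324, nearest 259), *Rpl3* (494, nearest 443) and *Rpl6* (427, nearest 376), and low in *Rpl22l1* (13.5, nearest 25). It also had the highest share of *Rpl10l* in its pair (23.6% of TPM, nearest 16.9%) and of *Rpl39l* (35.6%, nearest 28.2%). Control replicate 1 was high in *Rpl39l* (60.8 CPM, nearest 37.7) and *Rps4l* (172 CPM, nearest 139). The others were control replicate 2 in *Rps14* (433 CPM, nearest 500) and cKO replicate 3 in *Rpl39* (49.1 CPM, nearest 41.7).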

How the results depend on the processing

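Against 0 members called by edgeR over all 8 samples, DESeq2 called 1, with or without its independent filtering, replicates 2 to 4 alone gave 3, and the replicate block gave 6. The other settings (no robust fit, DESeq2 size factors, upper-quartile scaling, library totals, TMM without the members, other filters, limma on TPM, pseudogene counts added) and leaving out any 1 sample gave 0 each (range 0 to 0). Over all genes the calls were 8 with edgeR, 302 and 258 with DESeq2 with and without that filtering, 18 with upper-quartile scaling, 17 with library totals, 13 with TMM without the members, 35 without a filter, 0 with no robust fit, filterByExpr or limma, and 0 to 32 with 1 sample left out. The replicate numbers come from the titles, which name no shared litter or day. Same-numbered deviations from the genotype means correlated at 0.535, 0.145, 0.0389 and 0.197 for numbers 1 to 4 (mean -0.0683 for different numbers). That mean is not independent of the same-numbered values, because deviations within a genotype cancel out. As number 3 was low and the titles give no pairing, the numbers were not taken to pair the mice. All 4 same-numbered values were still above that mean, so pairing is not excluded. The 6 members called with the block, 3 lower (*Rpl10l*, *Rpl39l*, *Rpl36al*) and 3 higher (*Rpl10*, *Rps4x*, *Rps3a1*), are 6.74% of the members, against 7.25% of all genes (1464). The median log2 fold change of the 79 members outside the paralog list, 0.05, was between 0.03 and 0.08 over other settings (0.06 without *Rpl6l* and *Rpl32l*, a choice made after seeing the data) and between 0.01 and 0.09 with 1 sample left out, and the difference in the members' share of TPM between 0.0295 and 0.381 percentage points. Leaving out 1 sample kept the genotype difference in the log2 ratio of *Rpl10l* to *Rpl10* between -0.90 and -0.53, of *Rpl39l* to *Rpl39* between -0.83 and -0.41 and of *Rpl36al* to *Rpl36a* between -1.61 and -1.15, while those of *Rpl7l1* and *Rps27rt*, near 0, changed sign. Precision is limited by 4 mice per genotype, by the low counts of *Rpl3l*, *Rpl37rt* and *Rps27rt*, and by the division of reads among copies.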

Other observations

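The proteins of the mitochondrial ribosome, which are encoded by other genes than those of the cytosol, had small differences between genotypes. Of 78 genes tested 50 had log2 fold changes above 0, with a median of 0.03 and a range from -0.29 to 0.17. EdgeR and DESeq2 called 0 of them, with 1 lower and 0 higher at an unadjusted p under 0.05 in edgeR. *Mrpl24* had the smallest p (log2 fold change -0.29), followed by *Mrpl3* (0.13) and *Mrpl10* (0.16).

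The genome holds many pseudogenes of ribosomal proteins, and 322 rows of the tables carry such a name. Together they took 0.0676% to 0.0823% of the TPM of control libraries and 0.0758% to 0.0888% of cKO libraries, a small part beside the members. Of the 110 tested, 64 were above 0 (median 0.02), and edgeR and DESeq2 called 0, with 3 lower and 0 higher at an unadjusted p under 0.05 in edgeR.

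Core genes with long coding sequences stood out most in cKO replicate 1, a pattern noticed in the data and not tested. In that library the median core gene was 0.21 above its mean on the log2 scale in the longest genes (26 genes, 576 to 1257 coding bases), 0.16 in those of middle length (25 genes) and 0.09 in the shortest (26 genes, 75 to 405 bases). In cKO replicate 3 the order was the opposite, with 0.03, 0.04 and 0.09. The median log2 fold changes were 0.09, 0.05 and 0.04.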
